A study of Mus musculus with 6 samples.

Results

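Truncated miRNA reads are copies of a mature miRNA that were sequenced at 15 to 18 nt, shorter than the usual product. They were examined among the short RNAs bound to Argonaute (Ago) proteins in mouse brain. A sequence was taken as a member when it was annotated to a miRNA in the deposited table, was 15 to 18 nt long and lay above 0 in at least 1 of 6 samples. The rule found 405 members among 65087 sequences above 0, of which 18305 were annotated to a miRNA. The members belonged to 211 of the 782 miRNAs detected. All 405 were exactly 18 nt long, since the deposited annotation holds no miRNA read under 18 nt, and each was an exact part of its mature sequence. The 17900 longer miRNA sequences, of 19 nt or more, are called full-length here.

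The 6 samples came from brains of 3 wild-type (WT) mice and 3 Tau tg mice, a human tau fragment transgene under the Thy 1.2 promoter, which drives expression in neurons. Per the study's methods, all were 3-month-old males of the C57BL/6J background. The study's results and the source label name the hippocampus, whereas its general protocol combines cortex and hippocampus, so the exact tissue is not certain. The labels give 250 mg of tissue. The table holds short RNA reads only, so the transgene was not checked. Ago proteins were pulled down with a GW182 peptide. The labels give a gel cut of 19 to 35 nt, so the members lie 1 nt below its lower bound.

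A miRNA is cut from a hairpin by Drosha and Dicer and loaded into Ago, which holds the 5′ end of the strand in one pocket and its 3′ end in another. The bases next to the 5′ end form the seed, which pairs with target mRNAs. Loss of bases at the 3′ end leaves the seed as it was, whereas loss of bases at the 5′ end moves the seed and changes the set of targets it can pair with. Shortened or extended copies of a miRNA are called isomiRs.

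The sequences of 9 miRNAs with their most abundant truncated read show both kinds of loss. Mature sequences are those of RefSeq (GRCm38.p6), the reads were converted from T to U, all run 5′ to 3′, and capitals mark bases 2 to 8 of each molecule. In the first 5 miRNAs the most abundant truncated read kept the 5′ end and the seed.
let-7a-5p: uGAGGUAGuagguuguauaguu
let-7a-5p, truncated read: uGAGGUAGuagguuguau
miR-127-3p: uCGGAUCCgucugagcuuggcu
miR-127-3p, truncated read: uCGGAUCCgucugagcuu
miR-139-5p: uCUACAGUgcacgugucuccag
miR-139-5p, truncated read: uCUACAGUgcacgugucu
miR-144-3p: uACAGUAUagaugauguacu
miR-144-3p, truncated read: uACAGUAUagaugaugua
miR-181a-5p: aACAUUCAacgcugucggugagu
miR-181a-5p, truncated read: aACAUUCAacgcugucgg
In the other 4 it had lost 5′ bases, so that the capitals fall on other letters of the mature sequence.
miR-204-5p: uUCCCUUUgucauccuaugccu
miR-204-5p, truncated read: cUUUGUCAuccuaugccu
miR-9-5p: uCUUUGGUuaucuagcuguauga
miR-9-5p, truncated read: uUGGUUAUcuagcuguau
miR-125b-5p: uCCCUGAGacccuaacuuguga
miR-125b-5p, truncated read: uGAGACCCuaacuuguga
miR-21a-5p: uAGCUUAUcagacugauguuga
miR-21a-5p, truncated read: uUAUCAGAcugauguuga

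In GENCODE M21, the Mirlet7a-1 copy of mature let-7a-5p lies at chr13:48538239-48538260 (minus strand) in an exon of the lincRNA 6720427I07Rik. Mature miR-127-3p lies at chr12:109592888-109592909 (plus strand), opposite an exon of Rtl1. Mature miR-139-5p lies at chr7:101475382-101475403 (plus strand) within an intron of Pde2a, and miR-204-5p at chr19:22750610-22750631 (plus strand) within an intron of Trpm3. Mature miR-144-3p lies at chr11:78073047-78073066 (plus strand) outside other annotated genes, and miR-21a-5p at chr11:86584120-86584141 (minus strand) within an untranslated exon of Vmp1. Mature miR-181a-5p has a copy at chr1:137966468-137966490 (plus strand), inside the transcript Gm4258 but outside its exons, and a copy at chr2:38852741-38852763 (plus strand), opposite an intron of Nr6a1. The 3 copies of miR-9-5p lie at chr3:88215613-88215635, chr7:79505279-79505301 and chr13:83738821-83738843 (all plus strand) within noncoding genes. The 2 copies of miR-125b-5p lie at chr9:41581940-41581961 and chr16:77646279-77646300 (both plus strand), also within noncoding genes. A read cannot be assigned to 1 of several identical copies.

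The samples held between 998248 and 6879551 reads, recovered from the steps of the deposited RPM values, which scale reads to a fixed library size. The deepest was Tau tg 1, in which 299 members were detected, against 191 to 233 in the other 5 samples. A floor of 3 reads stood at 0.427 RPM in Tau tg 1 and at up to 2.75 RPM in WT 3. Of the 405 members, 78 were detected in all 6 samples and 93 in 1 sample, 259 had a mean of at least 1 RPM and 50 of at least 10 RPM. The neuronal miR-124-3p stood at 47769 to 90279 RPM over all lengths and miR-9-5p at 29427 to 48005 RPM, so the defining neuronal miRNAs were present in every sample.

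Truncated reads were a small share of miRNA reads in every sample. The summed level of members was 2950, 2472 and 2338 RPM in WT 1, WT 2 and WT 3, and 3073, 3064 and 2587 RPM in Tau tg 1, Tau tg 2 and Tau tg 3. As a share of all miRNA reads this was 0.340%, 0.317% and 0.309% in WT and 0.340%, 0.362% and 0.310% in Tau tg. The 95% Wilson intervals of these shares spanned at most 0.297% to 0.321% in the shallowest sample, WT 3, and cover counting error only, because duplicates made by PCR look like separate molecules. The groups overlapped, with WT 1 at the level of Tau tg 1 and WT 2 above Tau tg 3. With 3 samples a group, WT averaged 0.322% ± 0.0161 (SD) and Tau tg 0.337% ± 0.0257 (SD), a difference of 0.0153 percentage points (two-sided exact permutation test, p = 0.5, adjusted p = 0.75 over 3 measures; the smallest p this design allows is 0.1).

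The rise in abundance from 18 to 19 nt was steep. miRNA reads of 19 nt summed to between 17802 and 24685 RPM, which was 6.77 to 9.71 times the level of the 18-nt members in the same sample. With only those 19-nt reads that were exact parts of the mature form, as all members were, it was 6.30 to 9.08 times. Short reads were far more common among fragments of other RNA classes. Reads of 15 to 18 nt made up 38.7% ± 3.99 of mRNA fragments, 48.1% ± 5.52 of tRNA fragments and 30.3% ± 5.21 of rRNA fragments (SD, n = 6), against 0.330% ± 0.0209 of miRNA reads. The share was lower for miRNA in 6 of 6 samples in each of the 3 comparisons (exact sign-flip test, p = 0.03125, the smallest that 6 samples allow, adjusted p = 0.0375 over 6 differences). miRNA reads under 18 nt carry no annotation, so miRNA was counted at 18 nt alone against 15 to 18 nt in the other classes. The direction of this test was thus favoured in advance. With 18 nt counted alone in both classes, the share was still lower for miRNA in every sample, against means of 10.3% for mRNA, 29.6% for tRNA and 8.68% for rRNA fragments. All annotated miRNA reads of 18 nt were exact parts of a mature form, a limit that remains in this comparison.

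Most truncated reads had lost bases only at the 3′ end. The 143 members of this kind, 1 for each of 143 miRNAs, made up 62.6%, 65.4% and 61.1% of truncated reads in WT 1, WT 2 and WT 3 and 69.5%, 54.4% and 66.9% in Tau tg 1, Tau tg 2 and Tau tg 3. The sample Tau tg 2 had the lowest value and Tau tg 1 the highest, so the WT samples lay between them. The group means were 63.0% ± 2.18 in WT and 63.6% ± 8.05 in Tau tg (SD, n = 3; exact permutation test, p = 0.9, adjusted p = 0.9). In full-length miRNA reads the 5′ end was kept far more often, in 91.7% to 92.6% of reads. The difference, truncated minus full-length, was -28.8 percentage points on average. It had the same direction in 6 of 6 samples (exact sign-flip test, p = 0.03125, adjusted p = 0.0375). This comparison was added after the data were seen. Each truncated read was an exact part of a longer mature form, so it had to lose bases at its 5′ or 3′ end. A full-length read could hold the whole mature form. Read length alone thus favoured this direction, and the test cannot separate that from any other difference.

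Members with only 5′ loss and an intact 3′ end numbered 111 and made up 17.7% ± 2.44 of truncated reads (SD, n = 6). A further 151 members had lost bases at both ends and made up 18.9% ± 3.05. The 5′ losses were not spread evenly over positions. Members that had lost 4 bases at the 5′ end numbered 90 and took 15.7% ± 2.97 of truncated reads, more than the 54 members that had lost 1 base (9.37% ± 1.55), the 60 that had lost 3 (6.93% ± 1.64), the 40 that had lost 2 (3.18% ± 0.969) and the 18 that had lost 5 (1.53% ± 0.930). A mature miRNA of 22 nt, the most frequent length, gives an 18-nt read with an intact 3′ end when 4 bases are lost at its 5′ end. U, a base favoured by the 5′ pocket of Ago, opened 73.9% of the reads with only 3′ loss, 19.6% of those with only 5′ loss and 17.3% of those with loss at both ends. It opened 53.5% ± 1.78 of truncated reads and 71.5% ± 1.05 of full-length reads (SD, n = 6).

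From 20 to 25 nt the mean truncated share was lower at each longer length of the mature miRNA, but the shortest class lay outside this order. The 12 miRNAs with matures of 19 nt had 0.216% ± 0.477, where only miR-101b-3p had a member, with 1.19% in WT 1 and at most 0.0406% in the other 5 samples. The share was 0.874% ± 0.321 for matures of 20 nt, 0.388% ± 0.112 for 21 nt, 0.343% ± 0.0521 for 22 nt, 0.208% ± 0.0283 for 23 nt, 0.171% ± 0.109 for 24 nt and 0.0693% ± 0.0842 for 25 nt (SD, n = 6). The ranges over samples of neighbouring lengths overlapped except between 22 and 23 nt. No test was run on this order. Between the arms of the hairpin, with reads summed over each arm, the mean truncated shares were 0.333% for 5p and 0.317% for 3p, and the direction differed between samples (exact sign-flip test, p = 0.625; added after the data were seen). The planned comparison of median shares among miRNAs of at least 100 RPM could not show a difference, because the median was 0% on both arms in every sample except Tau tg 1. There it was 0.05% for the 135 miRNAs of the 5p arm and 0.0372% for the 137 of the 3p arm.

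Seed toxicity was taken from the deposited viability score of each 6mer seed (bases 2 to 7), the percent viability of murine cells given a short RNA with that seed, so that a low score marks a toxic seed. The read-weighted mean score of truncated reads was 54.9, 57.1 and 56.7 in WT 1, WT 2 and WT 3 and 57.2, 57.8 and 55.2 in Tau tg 1, Tau tg 2 and Tau tg 3. The groups overlapped, and the means of 56.2 ± 1.19 in WT and 56.7 ± 1.38 in Tau tg (SD, n = 3) differed by 0.513 (exact permutation test, p = 0.5, adjusted p = 0.75). Full-length reads of the same samples scored 57.3, 58.4 and 59.96 in WT and 57.3, 57.9 and 57.9 in Tau tg. Truncated reads scored lower in 6 of 6 samples, with a mean difference of -1.64 ± 1.36 (SD, n = 6) (exact sign-flip test, p = 0.03125, adjusted p = 0.0375). In Tau tg 1 and Tau tg 2 the difference was only -0.110 and -0.0832. With full-length reads weighted to the miRNA composition of the truncated reads it was -0.245 (exact p = 0.469), and without miR-124-3p it was -0.855 (exact p = 0.188).

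Loss of 5′ bases moved the seed score of single reads in both directions. Of the 262 members with 5′ loss, 135 carried a seed with a higher score than the mature seed of their miRNA and 127 a lower one, with a median shift of 1.65. The shift was at least 10 upward in 105 members and at least 10 downward in 91. Weighted by reads, the mean was 59.97 ± 2.66 for the seeds read and 61.9 ± 2.81 for the mature seeds of the same miRNAs (SD, n = 6), and the seeds read scored higher in 1 of 6 samples. Among the 20 most abundant of these members the widest shift was downward, in miR-125b-5p, from 79.4 for CCCUGA to 17.3 for GAGACC. The read behind it stood at 57.1, 6.10 and 51.4 RPM in WT and 12.5, 11.7 and 9.001 RPM in Tau tg. WT 1 and WT 3 were the highest and WT 2 the lowest, so the groups overlapped. In let-7a-5p the loss of 4 bases moved the score upward from 50.3 for GAGGUA to 84.3 for UAGUAG, and reads of let-7b-5p, let-7c-5p, let-7f-5p and let-7g-5p with the same loss carried the same moved seed. In miR-124-3p the loss of 1 base moved it from 57.3 for AAGGCA to 30.4 for AGGCAC.

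The truncated pool was concentrated in a few miRNAs. The 8 with the highest mean truncated level held 43.3% ± 2.05 of truncated reads but 22.2% ± 2.60 of all miRNA reads (SD, n = 6). They were miR-124-3p, let-7a-5p, let-7f-5p, let-7b-5p, miR-127-3p, miR-23a-3p, miR-26a-5p and let-7e-5p. The neuronal miR-124-3p, which represses non-neuronal transcripts, led with truncated levels of 506, 306 and 362 RPM in WT and 523, 209 and 250 RPM in Tau tg. As a share of its reads this was 0.561%, 0.385% and 0.582% in WT and 0.833%, 0.298% and 0.524% in Tau tg, so the highest and the lowest value were both in Tau tg. Its reads with only 3′ loss averaged 232 RPM, those with 1 base lost at the 5′ end 104 RPM and those with 2 lost 23.995 RPM.

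The let-7 family, which restrains LIN28 and cell growth genes in differentiated tissue, gave 4 of these 8 miRNAs. The read of let-7a-5p shown above, with its seed intact, was the most abundant member, at 257, 289 and 125 RPM in WT and 212, 276 and 318 RPM in Tau tg. WT 3 was the lowest and Tau tg 3 the highest, and the groups overlapped. That read is also a part of let-7c-5p, which differs from let-7a-5p outside the 18 bases, and the deposited annotation counts it for let-7a-5p alone. The truncated share was accordingly 1.34% ± 0.239 for let-7a-5p and 0.108% ± 0.125 for let-7c-5p (SD, n = 6), but 0.530% ± 0.0824 with both summed. let-7e-5p, whose truncated read fits no other mature, had 1.46% ± 0.248, with 1.40%, 1.60% and 1.79% in WT and 1.40%, 1.503% and 1.04% in Tau tg. Only Tau tg 3 lay below 1.40%, and the groups overlapped. let-7f-5p had 0.750% ± 0.227, let-7b-5p 0.509% ± 0.274 and let-7i-5p 0.114% ± 0.0960. miR-98-5p of the same family had 0.0390% ± 0.0524, and let-7k, at 4.64 RPM over all lengths, had no truncated read.

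The other leading members came from miRNAs with unlike shares. miR-23a-3p had a truncated share of 2.02% ± 1.07, from 0.268% in WT 2 to 3.06% in Tau tg 1, and its leading read is also a part of miR-23b-3p. miR-127-3p, expressed from the imprinted locus antisense to Rtl1, had 0.943% ± 0.440 and its leading read stood at 148, 76.6 and 23.9 RPM in WT and 46.7, 146 and 65.9 RPM in Tau tg. WT 1 and Tau tg 2 were the highest and WT 3 the lowest. miR-26a-5p, at 38770 RPM over all lengths, had 0.205% ± 0.0469 and ranged only from 0.158% to 0.274%.

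In some miRNAs most truncated reads had lost 5′ bases. Of the truncated reads of miR-204-5p, 1.23% kept the 5′ end, of miR-21a-5p 6.48%, of miR-9-5p 12.3% and of miR-125b-5p 26.8%. In miR-144-3p the share was 100% and in miR-138-5p 93.9%. Over the 211 miRNAs with a member, the truncated reads of 68 had all lost 5′ bases and those of 51 had all kept the 5′ end. A miRNA with a single member sequence, such as miR-144-3p, falls into either group by necessity. miR-9-5p, a regulator of neural progenitors, had 5 members, of which 1 kept the 5′ end and the others had lost up to 5 bases there. Its leading read, with 3 bases lost, stood at 17.8, 22.4 and 12.8 RPM in WT and 10.8, 120 and 38.1 RPM in Tau tg. The highest value was that of Tau tg 2 and the lowest that of Tau tg 1.

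Truncated shares differed widely between miRNAs. Of 276 miRNAs of at least 100 RPM over all lengths, 192 had a member and 68 had truncated reads in all 6 samples. Their mean share had a median of 0.135% and an upper quartile of 0.356%, and 28 reached 1%. The Spearman correlation of the shares between pairs of samples, over these 276 miRNAs, ran from 0.417 to 0.623, with a median of 0.560 within a group and 0.524 between groups. miRNAs are not independent replicates, and zeros are shared between samples, so this is a description only.

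Among miRNAs of at least 100 RPM the highest mean shares were those of miR-144-3p, miR-299a-5p, miR-378a-3p, miR-877-5p, miR-331-3p and miR-34b-3p. The red cell miRNA miR-144-3p had 6.14%, 4.79% and 8.49% in WT and 3.66%, 0.803% and 11.7% in Tau tg, a mean of 5.92% ± 3.80 (SD, n = 6). It was above 3% in every sample except Tau tg 2, and its mature form is only 20 nt long. Of the other 5 high means, those of miR-299a-5p, miR-877-5p and miR-34b-3p rested on few samples. Those of miR-378a-3p and miR-331-3p drew on more samples, with the highest share of each in WT 3. miR-299a-5p was listed at 0 in every WT sample and in Tau tg 1, with 22.1% in Tau tg 2 and 0.488% in Tau tg 3. miR-877-5p, a mirtron spliced from its host intron without Drosha, had 15.97% in WT 2 and 3.30% in Tau tg 3, and miR-34b-3p had 10.7% in WT 1 and 4.24% in Tau tg 3. These 3 miRNAs stood at 101 to 178 RPM over all lengths, so that few reads lay behind each share. miR-378a-3p reached 11.6% in WT 3 and stood between 0.786% and 2.85% elsewhere, and its read is also a part of miR-378c.

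At the low end, 84 miRNAs of at least 100 RPM had no truncated read in any sample. The most abundant were miR-487b-3p at 1813 RPM, miR-411-5p at 1308 RPM, miR-433-3p at 1184 RPM and miR-195a-5p at 1132 RPM. A count of 0 allows a share of up to 0.0112% for miR-487b-3p (26684 reads over the 6 samples), 0.0142% for miR-411-5p, 0.0169% for miR-433-3p and 0.0146% for miR-195a-5p, for counting error only. The lowest shares above 0 were those of miR-31-3p (0.00621% ± 0.0152), miR-382-5p (0.0193% ± 0.0472), miR-369-3p (0.0236% ± 0.0424) and miR-31-5p (0.0270% ± 0.0321). The truncated reads of miR-31-3p and miR-382-5p were seen in Tau tg 1 alone, the deepest library. For miR-31-3p this was 0.142 RPM, the value of 1 read there. These shares cannot be ranked against those of the miRNAs at 0. miR-411-5p, miR-433-3p, miR-487b-3p, miR-382-5p and miR-369-3p come from the imprinted miRNA clusters that also hold miR-127-3p, whose share was 0.943%.

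Lists of miRNAs by cell type or biogenesis showed shares of the same order. Reads of 10 neuronal miRNAs had a truncated share of 0.352% ± 0.0903, from 0.0587% ± 0.0953 for miR-137-3p to 1.39% ± 0.674 for miR-139-5p. The 4 oligodendrocyte miRNAs had 0.160% ± 0.0637, from 0.152% ± 0.211 for miR-219a-5p to 0.239% ± 0.316 for miR-338-5p. The let-7 list had 0.528% ± 0.113, with let-7e-5p the highest and let-7k at 0. The 7 immune miRNAs had 0.112% ± 0.0849, most of it from miR-21a-5p. Of that list miR-142a-3p was the highest at 0.561% ± 0.763, while miR-146a-5p, miR-155-5p, miR-223-3p and miR-142a-5p had no truncated read. The 6 measured miRNAs of vessels and blood had 0.499% ± 0.199, from miR-126a-3p at 0.138% ± 0.139 to miR-144-3p. The 8 miRNAs known for decay with trimming or tailing, which target-directed decay removes, had 0.159% ± 0.0593, from 0% for miR-7b-5p, miR-335-3p and miR-503-5p to 0.340% ± 0.232 for miR-30b-5p. The leading truncated read of miR-30b-5p is also a part of miR-30c-5p, which is in this list at 0.0869% ± 0.0879. The 4 of noncanonical biogenesis had 0.617% ± 0.898, from miR-484 at 0.204% ± 0.281 to miR-877-5p, and 1 value, 2.41% in WT 2, lay above the other 5 samples (0.0753% to 0.580%). Cell-type lists cannot tell fewer cells of a type from less RNA per cell in bulk tissue.

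Whether single truncated sequences differed between Tau tg and WT was tested with limma on log2(RPM + 1) over the whole table. Among all 36070 sequences tested, 2.23% had an unadjusted p under 0.05, 1.44% with the higher mean in Tau tg, and 0.0277% passed the adjusted threshold of 0.05. Of the 405 members, 259 passed the filter of a mean of at least 1 RPM and were tested. Of these, 13 (5.02%) had an unadjusted p under 0.05, 12 (4.63%) of them higher in Tau tg, and none passed the adjusted threshold. edgeR on the recovered reads gave 4 of 259 members (1.54%) at an unadjusted p under 0.05, against 7.11% of all sequences. These were reads of miR-331-3p, miR-218-5p, miR-451a and miR-325-5p, none of them higher in Tau tg (0.993% of all sequences were called and higher), and none passed the adjusted threshold (0.136% of all sequences did). DESeq2 gave 14 of 256 members (5.47%) against 8.6% of all sequences. Of these members 5 were higher in Tau tg, reads of miR-301a-3p, miR-27b-3p, miR-543-3p, miR-181a-5p and miR-29a-3p, and 0.849% of all sequences were called and higher. DESeq2 gave 1 adjusted call among members (0.391%, against 1.62% of all sequences). Both the direction split and whether members were called more or less often than all sequences therefore depended on the test. The adjusted call was a read of miR-451a seen at 46.1 RPM in WT 2 and at 0 in the other 5 samples. The median log2 difference was 0.28 for the members and -0.16 for all sequences tested. This gap depended on the filter for low values. Raising the filter to 10 RPM gave medians of 0.056 for members and 0.105 for the whole table, the reverse order. Dropping the filter gave 0.292 and 0.283. Among sequences detected in all 6 samples, the groups did not overlap in 9.31% of all sequences and in 5 of 78 members (6.41%). These were reads of miR-204-5p, miR-9-5p, miR-134-5p and miR-181a-5p, higher in Tau tg, and of miR-30b-5p, lower in Tau tg.

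The members that differed most in level were named by non-overlapping groups and an unadjusted limma p under 0.05. The trimmed read of miR-204-5p shown above, a miRNA of the choroid plexus and retinal epithelium, had 41.2, 4.07 and 35.8 RPM in WT against 110, 68.6 and 42.1 RPM in Tau tg. All Tau tg samples lay above all WT samples, although Tau tg 3 and WT 1 were close (log2 difference 1.80 ± 0.78 SE, limma adjusted p = 0.584). Over all lengths miR-204-5p stood at 1788, 1892 and 4824 RPM in WT and 8110, 1953 and 3695 RPM in Tau tg. Both this level and the truncated share overlapped between the groups. The read of miR-9-5p that lost 5 bases at its 5′ end and kept its 3′ end stood at 5.15, 0.678 and 1.84 RPM in WT and 20.9, 9.20 and 20.05 RPM in Tau tg. Each Tau tg value exceeded each WT value (log2 difference 2.44 ± 1.06 SE, limma adjusted p = 0.584). The read of miR-181b-5p with only 3′ loss stood at 0, 2.03 and 0 RPM in WT and 18.2, 20.9 and 5.32 RPM in Tau tg. WT 2 was the only WT sample with it, at the level of 3 reads (log2 difference 3.26 ± 1.16 SE, limma adjusted p = 0.584).

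In the opposite direction a read shared by miR-30b-5p and miR-30c-5p, members of a family abundant in brain, stood at 20.6, 22.4 and 27.5 RPM in WT and 3.13, 0.836 and 9.82 RPM in Tau tg. Every WT sample lay above every Tau tg sample (log2 difference -2.49 ± 0.98 SE, limma adjusted p = 0.584). Over all lengths miR-30b-5p stood at 4983, 4511 and 4542 RPM in WT and 7338, 4602 and 6309 RPM in Tau tg, where the groups overlapped and the Tau tg samples held the highest values. The other possible source of the read, miR-30c-5p, was more abundant, with a mean of 8920 RPM over all lengths against 5381 RPM for miR-30b-5p.

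The truncated share of each miRNA was tested as the log2 ratio of its truncated to its full-length level. Of 152 miRNAs with enough reads, 10 (6.58%) had an unadjusted limma p under 0.05, 8 of them higher in Tau tg, and 0% passed the adjusted threshold. With a mean truncated level of at least 10 RPM, 50 miRNAs were tested. At the same unadjusted threshold 4 of them were called, 1 of these higher in Tau tg. Here the members are the whole comparison, so no other background exists. edgeR gave 9 and DESeq2 22 miRNAs at an unadjusted p under 0.05, with no adjusted call. Of 69 tested miRNAs with truncated reads in all 6 samples, the shares of 9 (13%) did not overlap between groups, 7 of them higher in Tau tg. With 3 samples a group, a full separation has an exact permutation p of 0.1, and the 13% lies near that rate. None of the miRNAs described next passed the adjusted threshold.

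The brain miRNA miR-139-5p had truncated shares of 2.24%, 1.88% and 1.79% in WT and 0.866%, 0.551% and 0.987% in Tau tg. The WT samples lay close together and all above the Tau tg samples (log2 difference -1.33 ± 0.60 SE, limma adjusted p = 0.662). Its truncated level was 123, 81.3 and 79.8 RPM in WT and 60.6, 30.1 and 48.3 RPM in Tau tg, and 90.7% of these reads kept the 5′ end. Over all lengths it stood at 5500, 4316 and 4452 RPM in WT and 7001, 5460 and 4894 RPM in Tau tg, where the groups overlapped.

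In miR-181a-5p, a regulator of lymphocyte and neuronal signalling, the share was 0.148%, 0.0506% and 0.0531% in WT and 0.460%, 0.243% and 0.523% in Tau tg. All Tau tg samples lay above all WT samples (log2 difference 2.25 ± 0.87 SE, limma adjusted p = 0.662). More than 1 read lay behind it. The read with an intact 5′ end stood at 16.4, 2.71 and 1.84 RPM in WT and 30.02, 0 and 25.8 RPM in Tau tg, with overlap, while the read that lost 3 bases at the 5′ end stood at 0.468, 2.71 and 0.917 RPM in WT and 6.83, 10.04 and 8.59 RPM in Tau tg, without overlap. miR-331-3p had 2.49%, 1.96% and 10.3% in WT and 0.598%, 0% and 1.76% in Tau tg (log2 difference -2.72 ± 1.10 SE, limma adjusted p = 0.662). WT 3 stood far above the other samples there, and miR-331-3p was at 346 to 1455 RPM over all lengths. Each of its 2 truncated reads overlapped between the groups. The read with an intact 5′ end stood at 22.5, 0 and 35.8 RPM in WT and 5.83, 0 and 12.7 RPM in Tau tg. The read that lost 1 base there stood at 28.5 RPM in WT 2 and at 0 in every other sample. The WT 2 share thus rested on that read alone.

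By list, the share of 10 neuronal miRNAs tested gave 1 lower call, that of miR-139-5p, and no higher call at an unadjusted limma p under 0.05, with a median log2 difference of 0.12. The let-7 list gave no call among 8 tested (median -0.02), the oligodendrocyte list none among 3 (0.71), the immune list none among 3 (1.30), the list of vessels and blood none among 6 (-0.37), the decay list none among 3 (-0.81) and the noncanonical list none among 4 (-1.07). Over all 152 miRNAs tested the median was 0.37. Over the 50 with a mean of at least 10 RPM truncated it was 0.0063.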

How the data were processed

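Sample titles gave the groups and the replicate numbers. The authors made the deposited table by trimming reads (Trim Galore, per the labels), compiling unique sequences, removing rare and artificial ones and annotating the rest by BLAST. The deposited values are RPM as scaled by the authors. The deposited 6mer seed viability, a mean over 3 murine cell lines, was used as a score, since it reaches beyond 100. Of 109434 rows, 44347 held 0 in all samples and were dropped. Whole reads were recovered from the RPM steps, with 100% of values within 0.1 of a whole read in each sample. Mature sequences came from RefSeq (GRCm38.p6) for 359 members. For the other members the most abundant read of 20 to 24 nt of that miRNA served. A read was said to keep the 5′ end when its first 16 bases were those of the mature form. The members and the lists were chosen with earlier results of these data known.

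Group measures were compared by exact permutation over 20 assignments and within-sample differences by exact sign flips over 64. Mean read length was constant at 18 nt and could not be tested, so p-values were adjusted over 3 group measures. Sequences averaging 1 RPM or more, and miRNAs with at least 1 RPM truncated and 10 RPM in total, were fitted with limma 3.58.1 (trend, pseudocount 1 RPM, Benjamini-Hochberg over the whole table), checked on simulated data. The recovered reads were also tested with edgeR 4.0.16 and with DESeq2 1.42.0. R 4.3.3, Python 3.11.15 and SciPy 1.17.1 were used. Fold differences on the log2(RPM + 1) scale understate changes of low reads. Named in the text were the 8 miRNAs with the highest truncated level, the 6 highest and 4 lowest shares at 100 RPM or more (ties at 0 by level, and the 4 lowest above 0), shares (truncated level at least 10 RPM) and reads with groups that did not overlap and an unadjusted p under 0.05 (up to 4 and 3 in each direction), the 6 most abundant reads, and the highest and lowest member of each list. Other genes named were chosen after their values were seen. The replicates are separate animals as far as the labels say.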

Additional observations from a re-analysis of the deposited data

Results flagged for a closer look

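The difference in median truncated share between 5p and 3p arms was 0.0128 percentage points in Tau tg 1 and 0 in the other 5 samples, so that Tau tg 1 stood apart from the rest. Tau tg 1 was the deepest library, with 6879551 reads and 299 members detected. The part of depth in this difference was not tested. The other 5 values are tied because the median share was 0 on both arms, so that any single value above 0 would stand apart.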

How the results depend on the processing

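Leaving out each sample in turn left 5 of the 6 within-sample differences in the same direction, with the exact p at 0.0625, the smallest that 5 samples allow: the seed score difference ran from -1.95 to -1.31, the difference in reads of 15 to 18 nt from -39.5 to -37.2 points for mRNA, from -48.9 to -46.1 for tRNA and from -31.2 to -28.4 for rRNA fragments, and that in the 5′ end kept from -30.0 to -27.1 points. The sixth, in median share between arms, was 0 without Tau tg 1. Group differences that were small changed sign. The 5′ end share (Tau tg minus WT) ran from -2.40 to 5.14 points, with 0.555 over all samples, and was -0.432 without miR-124-3p and -1.29 with unannotated reads of 15 to 17 nt added. The seed score ran from -0.166 to 1.29, with 0.513 over all samples, and was -0.175 without miR-124-3p and -0.100 as a weighted median. The truncated share ran from 0.00314 to 0.0288 points. The seed score difference between truncated and full-length reads was no longer significant as a weighted median (-2.57, exact p = 0.25), without miR-124-3p (-0.855) or at equal miRNA composition (-0.245). Counts of members at an unadjusted limma p under 0.05 ran from 6 to 15 when a sample was left out, and were 6 with a pseudocount of 5 RPM, 1 with a mean of at least 10 RPM and 4 with edgeR, with 13 as reported; DESeq2 gave 1 adjusted call. The called share of members exceeded that of all sequences in the limma fits (5.02% against 2.23% as reported) except with a mean of at least 10 RPM (2% against 4.28%), and was lower with edgeR (1.54% against 7.11%) and DESeq2 (5.47% against 8.6%). Counts of miRNA shares ran from 6 to 12 when a sample was left out, against 10, and were 4 with a mean of at least 10 RPM truncated and 22 with DESeq2. With no filter on low values 2 shares passed the adjusted threshold, those of miR-182-5p and miR-96-5p, whose truncated levels averaged 0.163 and 0.279 RPM. The causes of these changes were not tested.

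Replicate numbers did not pair the samples: deviations of same-numbered samples over the members correlated by 0.0128, 0.0648 and 0.0228. With the replicate number as a block, 12 members and 10 shares had an unadjusted p under 0.05, none adjusted, and the group differences kept their values of 0.0153, 0.555 and 0.513 (exact sign-flip p of 0.5, 1 and 0.75). Of 280 values recomputed under other settings, 227 neither changed sign nor crossed a threshold or, for counts, moved by over 1.5 times, but 79 of these equal the reported value and 3 stood at 0. Another 41 weakened, 3 strengthened and 9 changed sign. Depth limits single reads: 3 reads were 0.427 to 2.75 RPM, and the members detected in 1 sample cannot be compared between groups.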

Other observations

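Reads of 15 to 17 nt that are an exact part of a mature miRNA are in the table without a miRNA annotation. There were 645 such sequences, 155 of 15 nt, 214 of 16 nt and 276 of 17 nt, and 608 of them fit a single mature miRNA. They summed to 1785, 1455 and 1760 RPM in WT and 1716, 2549 and 1496 RPM in Tau tg, with overlap between the groups. A 15-nt match can also arise from another RNA, and their origin was not tested. Adding them raised the truncated share of miRNA reads to between 0.489% and 0.661%.

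These shorter pieces kept the 5′ end less often than the 18-nt members, so the majority with only 3′ loss is that of 18-nt reads. Over 15 to 17 nt together, from 14.8% (Tau tg 1) to 25.5% (WT 3) of their reads started at the mature 5′ end. The mean share with the mature 5′ end was 11.9% ± 3.13 at 15 nt, 19.4% ± 6.93 at 16 nt and 21.2% ± 7.53 at 17 nt, against 63.3% ± 5.28 at 18 nt (SD, n = 6). The ranges over samples did not overlap between 18 nt, lowest at 54.4%, and 17 nt, highest at 36.4%. The most abundant of these pieces, a 16-nt start of let-7a-5p that also fits other let-7 miRNAs, stood at 63.2, 60.3 and 78.0 RPM in WT and 14.5, 19.2 and 21.3 RPM in Tau tg. All WT samples lay above all Tau tg samples. The 17-nt piece with the same start stood at 8.43, 20.3 and 42.2 RPM in WT and 20.3, 17.6 and 13.1 RPM in Tau tg, with overlap. The full 18-nt read of let-7a-5p also overlapped between the groups. The 16-nt piece was noticed among the 12 most abundant pieces after the values were seen, and the difference was not tested.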
